A study of Gallus gallus with 6 samples.

Results

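Potassium channel genes were described on 6 Affymetrix chicken arrays of cells from the bursa of Fabricius, where B cells of birds mature. The members were all probe sets whose single gene symbol in the platform annotation starts with KCN, the root of the names of potassium channel subunits and of several of their partners. This rule found 125 of 38439 tested probe sets, and they stood for 70 of 13009 named genes. Membership was set by names and used no measured value, though earlier results of these data were known when the members were chosen.

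Both groups were bursal cells of line 0 chickens aged 3 weeks. In each culture 2000000 cells were kept overnight at 37 °C under 5% CO2, in L-15 and McCoy 5A media with 4% FBS and antibiotics, on a monolayer of DF-1, a chicken embryo fibroblast line. The 3 control cultures lay on Vector-DF1 cells and the 3 SCA2 cultures on SCA2Flag-DF1 cells, which make Flag-tagged stem cell antigen 2, a lipid-anchored membrane protein. Bursal cells were then washed off the adherent monolayer and their total RNA was taken. The sample titles call the arrays of each group biological replicates 1 to 3. The labels name no separate birds for the replicates and do not say whether a DF-1 line was 1 clone. The p-values therefore rest on the spread between these samples alone, part of which may be technical.

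Potassium channels let potassium leave a cell and so hold its membrane potential negative. In lymphocytes of mammals, voltage-gated and calcium-activated channels keep up the electrical force that drives calcium entry after an antigen receptor is engaged. Voltage-gated channels open on depolarization, inward rectifiers pass potassium more easily into than out of the cell, and two-pore channels carry the resting leak. Calcium-activated and sodium-activated channels respond to ions inside the cell. Many pore-forming subunits work with auxiliary subunits that change their gating or their transport to the surface.

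By family, 68 probe sets (39 genes) belonged to voltage-gated channels and their partners, 19 (10 genes) to inward rectifiers and 19 (12 genes) to two-pore channels. Calcium-activated channels had 12 (7 genes) and sodium-activated channels 7 (2 genes). Values are log2 of the deposited RMA intensity. No detection calls were used. Background was marked at a log2 intensity of 4.96, under which lay the mean of 95% of 746 probe sets whose names refer to no chicken transcript cluster, among them reporter sequences. A probe set was above background where the mean of at least 1 group lay over this mark.

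Above background lay 45 of the 125 probe sets (36.0%), of 29 genes, against 64.5% of all tested probe sets. Of these 45, 37 were above it in both groups, 7 on the control arrays alone and 1, of KCNN1, on the SCA2 arrays alone. The calcium-activated family had 8 of 12 probe sets above background and the sodium-activated one 4 of 7. The inward rectifiers had 7 of 19, the two-pore channels 6 of 19 and the voltage-gated family 20 of 68. The median member had a mean log2 intensity of 4.37 over all arrays, against 5.71 for all probe sets. Nearest to the mark, a probe set of KCNT2 lay just over it at 4.97 and one of KCNT1 just under it at 4.93.

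The comparison asked how potassium channel RNA differed between cells recovered from the SCA2 monolayer and from the vector monolayer. KCNMA1, KCNJ5 and KCNK5, which encode pore-forming subunits, were higher with SCA2, by up to 2.83-fold. KCNAB2, KCNA2, KCNQ1, KCNH1, KCNT2, KCNMB4 and KCNJ15 were lower, by up to 2.89-fold. Over all members, 10 probe sets of 5 genes rose and 27 of 21 genes fell (limma, Benjamini-Hochberg adjusted p under 0.05). The calls made up 29.6% of the members, while of all 38439 probe sets 35.3% were called, 18.2% higher and 17.1% lower. No gene had calls in both directions. Of the 37 members above the mark in both groups, 9 rose and 14 fell, where 48.4% of all such probe sets were called, 26.7% higher and 21.7% lower. The median change was -0.12 (log2, SCA2 minus control), against -0.05 over all probe sets. With each gene counted through its brightest probe set, 5 of 70 genes were higher and 15 lower (28.6%), against 47% of all named genes.

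Counted in probe sets, leaving out 1 array ended more of the falls than of the rises. Of the 37 calls, 18 held in each of the 6 fits that left out 1 array, 8 of 10 rises and 10 of 27 falls. Of the 8 rises, however, 4 were probe sets of KCNJ5 and 3 of KCNMA1, and probe sets of 1 gene are not independent. Falls numbered 20 without control 1, 19 without control 2 and 17 without control 3. They numbered 15 without SCA2 1, 15 without SCA2 2 and 12 without SCA2 3, while rises numbered 8 or 9 with any array left out. Counted by gene, rises numbered 3 or 4 and falls 11 to 18 in these fits, against 5 and 21 on all 6 arrays. These numbers can include calls not made on all 6 arrays, such as KCNE3 lower without control 1. Over all probe sets, lower calls went from 6565 to 4497 without SCA2 1 and 4712 without SCA2 3. Higher calls over all probe sets went from 6992 to 5378 and 5499 in the same fits. Cyclic loess normalization, chosen after seeing the data, gave 11 rises and 15 falls. A fitted change of at least 2-fold was called for 5 higher and 4 lower probe sets, where 4.34% and 3.45% of all probe sets had one. Of the 4, 1 of KCNT2 was under the mark on all SCA2 arrays and gives no fold. The groups did not overlap in 52 of the 125, against 48.9% of all probe sets.

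**Figure D1:**
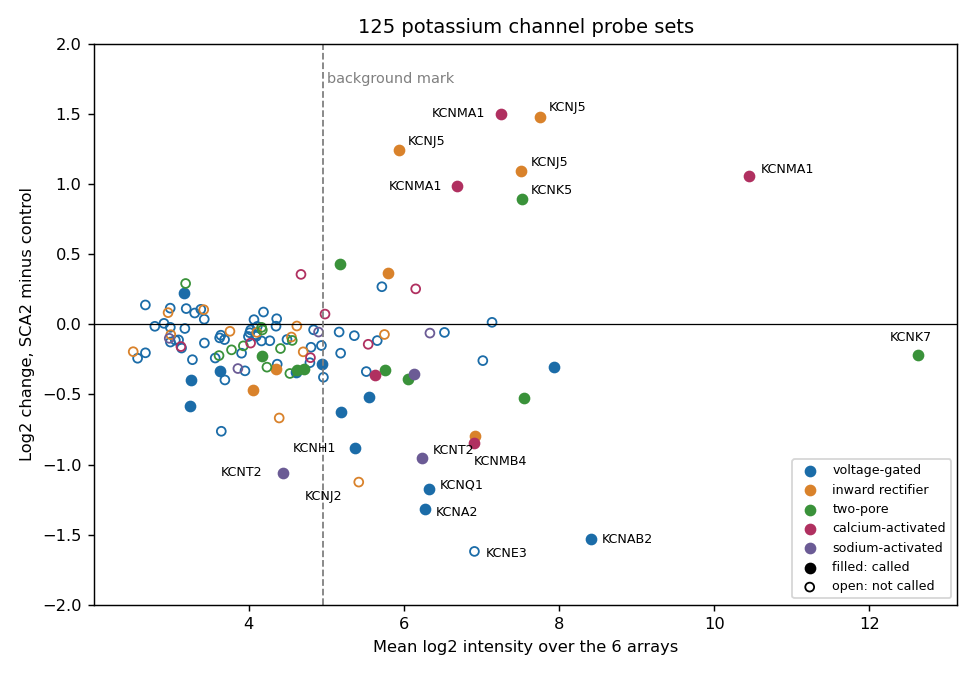
Each point is 1 of the 125 potassium channel probe sets, with its mean log2 intensity over the 6 arrays on the x axis and its log2 change (SCA2 minus control) on the y axis. Colours give the channel family, filled points passed the test, and the dashed line is the background mark of 4.96. Probe sets of KCNMA1, KCNJ5 and KCNK5 stand at the top, and those of KCNAB2, KCNA2 and KCNQ1 at the bottom with KCNE3, which did not pass.

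Marker genes of the cells that the harvest could hold differed between the groups too. Of all 13009 named genes, each at its brightest probe set, 3410 were called higher and 2701 lower (47% called). All 15 measured B cell markers were above background, and 14 fell, with a summed linear intensity of 32041 to 33399 on the control arrays, against 10932 to 13595 on the SCA2 arrays. Those with the smallest p were PLCG2, CR2, BTK and PTPN6 (log2 changes of -1.53 to -1.85). Of 15 T and NK cell markers 14 fell, led by CD3D, CD247, TARP and CD28, with sums of 9576 to 11151 and 3820 to 3908. Of 19 macrophage and phagocyte markers 14 fell, led by CD36, IL8L1, LYG2 and LYZ, and of 16 epithelium markers 11 fell, led by PROM1, FERMT1, TMPRSS2 and ELF3. No marker of these 4 lists rose. Of 23 fibroblast markers 17 rose and 2 fell, led by COL6A2, SPARC, THY1 and COL5A1 (1.82 to 2.75), with sums of 39836 to 40974 and 70858 to 72831. Smooth muscle and pericyte markers had 4 of 9 higher (TPM2, CSPG4, TAGLN and CALD1) and 2 lower (RGS5 with a change of -0.55 and DES with -0.34). ACTA2, which lay under the mark in both groups, MYH11 and MYLK were not called. The sums of this list were 4299 to 4620 and 8820 to 9486. Neuron and glia markers had 2 of 13 higher (NEFL by 1.83 and TUBB3 by 0.42) and 0 lower, and 7 of the 13 lay under the mark in both groups. Under the mark in both groups lay 3 fibroblast markers and 1 each of the T and NK cell, macrophage, epithelium and smooth muscle lists. In such bulk RNA, fewer cells of a type and less RNA per cell cannot be told apart. RNA of bursal cells and RNA of any DF-1 cells that came off with them cannot be told apart either. The DF-1 cells differed between the groups by design. The part of these marker shifts in the potassium channel results was not tested.

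Of 12 calcium-activated probe sets 3 rose and 2 fell (41.7% called, against 35.3% of all probe sets), and KCNMA1 held the rises. It encodes the pore-forming subunit of the large-conductance (BK) channel, which opens on calcium and depolarization and is abundant in smooth muscle and neurons. Probe set Gga.3260.2.S1_a_at read 6.64, 6.26 and 6.59 on control 1, 2 and 3 and 8.16, 7.85 and 7.99 on SCA2 1, 2 and 3. Every SCA2 array lay over every control array by more than the spread within either group. The change was 1.50 (log2, SE 0.13, 2.83-fold; adjusted p = 1.6e-04, limma with Benjamini-Hochberg adjustment).

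Probe set Gga.19342.1.S1_at of KCNMA1 read 10.19, 9.68 and 9.91 on the control arrays, against 10.98, 10.99 and 10.99 on the SCA2 arrays. The SCA2 arrays were nearly equal, and the control arrays lay below them and further apart. This was a change of 1.06 (SE 0.13, 2.08-fold; adjusted p = 6.9e-04, limma with Benjamini-Hochberg adjustment). Gga.19588.1.S1_at went from 6.19 ± 0.11 to 7.18 ± 0.25 (mean ± SD, n = 3 each), a 1.98-fold change (adjusted p = 0.00123, limma with Benjamini-Hochberg adjustment). The fourth probe set, Gga.19588.1.A1_at, lay under the background mark in both groups, differed by 0.36 and did not pass. The summed fibroblast and smooth muscle markers given above were higher on the same arrays, while RGS5 and DES of the latter list were lower. The part of these markers in the rises of KCNMA1, KCNJ5 and KCNK5 was not tested.

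Of the auxiliary beta subunits of the BK channel, 1 fell and 0 rose. KCNMB4, which slows the gating of the channel in the brain of mammals, fell from 7.33 ± 0.11 to 6.48 ± 0.23 (n = 3 each), a change of -0.85 (SE 0.13; adjusted p = 0.00191, limma with Benjamini-Hochberg adjustment). Its lowest control value, 7.21, lay over its highest SCA2 value, 6.66. KCNMB1, the beta subunit of smooth muscle, read 6.03 ± 0.17 and 6.28 ± 0.11 and did not pass (adjusted p = 0.111, limma with Benjamini-Hochberg adjustment). All 3 probe sets of KCNMB2 were under the mark.

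The small-conductance channels open on calcium alone. KCNN2 fell slightly, from 5.81 ± 0.21 to 5.44 ± 0.03 (n = 3 each; adjusted p = 0.0397, limma with Benjamini-Hochberg adjustment). This call was lost without control 2 (adjusted p = 0.0588, limma with Benjamini-Hochberg adjustment), SCA2 1 (0.0878), SCA2 2 (0.0947) or SCA2 3 (0.111). KCNN1 stood at the mark in both groups (4.95 and 5.02) and did not pass. KCNU1, a relative of KCNMA1 known from mammalian sperm, was counted in this family by its name alone. It read 5.61 ± 0.22 and 5.47 ± 0.19, with overlapping groups. KCNN4, the intermediate-conductance channel of activated lymphocytes in mammals, was named by no probe set here.

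Of 19 inward rectifier probe sets 4 rose and 3 fell (36.8% called, against 35.3% of all probe sets). KCNJ5 rose in all 4 of its probe sets. It encodes Kir3.4, a channel opened by G-protein beta-gamma subunits that forms the muscarinic potassium channel of the heart together with KCNJ3. GgaAffx.23423.2.S1_s_at read between 6.88 and 7.16 on the control arrays, against 8.81, 8.22 and 8.46 on the SCA2 arrays. All SCA2 arrays exceeded all control arrays by over 1 log2 unit. The change was 1.48 (SE 0.16, 2.79-fold; adjusted p = 3.8e-04, limma with Benjamini-Hochberg adjustment).

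The other KCNJ5 probe sets pointed the same way. Gga.546.1.S1_s_at read 5.46, 5.21 and 5.29 against 6.91, 6.09 and 6.68, a change of 1.24 (SE 0.20; adjusted p = 0.00275, limma with Benjamini-Hochberg adjustment). GgaAffx.23423.1.S1_at read 6.86, 7.21 and 6.83 against 8.25, 7.83 and 8.10, a change of 1.09 (SE 0.14; adjusted p = 0.00109 in the same test). Both had their lowest SCA2 value on SCA2 2 and no overlap between groups. Gga.546.1.S1_at changed least, from 5.62 ± 0.11 to 5.98 ± 0.04 (n = 3 each; adjusted p = 0.0116, limma with Benjamini-Hochberg adjustment). Probe sets ending in _s_at can match more than 1 transcript, which applies to 2 of these 4. The partner subunit gene KCNJ3 lay under the mark in both probe sets, with differences of -0.01 and -0.07. KCNJ1, a protein-coding gene next to KCNJ5 in the RefSeq annotation of assembly GRCg7b, was also under the mark (difference -0.06).

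KCNJ15, a subunit of the Kir4 group found in epithelia, was called lower in 1 of its 2 probe sets, GgaAffx.10239.1.S1_at. It read 7.32 ± 0.06 on the control arrays, against 6.52 ± 0.28 on the SCA2 arrays (n = 3 each), a change of -0.80 (SE 0.14; adjusted p = 0.00403, limma with Benjamini-Hochberg adjustment). Its SCA2 values were 6.34, 6.37 and 6.84, the last on SCA2 3, where the epithelium markers were also highest among the SCA2 arrays (summed intensity 9483, against 4340 and 4093). Among the control arrays the epithelium markers were highest on control 2 (26523, against 12944 and 17498), while KCNJ15 read 7.29, 7.28 and 7.38. The B cell, T and NK cell and macrophage sums were also highest on SCA2 3 among the SCA2 arrays. Among the control arrays the B cell and the T and NK cell sums were highest on control 3 and the macrophage sum on control 2. Without SCA2 3 the change of KCNJ15 was -0.96. The part of any of these markers in the fall of KCNJ15 was not tested. The other probe set of KCNJ15 lay under the mark (4.60 on the control and 4.51 on the SCA2 arrays) and did not pass. KCNJ6, the neighbour of KCNJ15 in the same annotation, lay under the mark (difference -0.05). The reverse-orientation probe set of KCNJ12, whose name carries A1, was above the mark at 5.79 ± 0.20 and 5.72 ± 0.17, and its S1 partner was not.

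Among two-pore channels, KCNK5 rose. It encodes TASK-2, a leak channel that opens at alkaline pH and takes part in the regulation of cell volume, also in T cells of mammals. Gga.11950.1.S1_s_at went from 7.08 ± 0.17 on the control arrays to 7.97 ± 0.03 on the SCA2 arrays (n = 3 each). Its lowest SCA2 value, 7.94, lay over its highest control value, 7.24. The change was 0.89 (SE 0.10, 1.86-fold; adjusted p = 5.0e-04, limma with Benjamini-Hochberg adjustment). This probe set ends in _s_at and can match more than 1 transcript. The other probe set of KCNK5 lay under the mark (difference 0.29) and did not pass.

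Of the KCN genes near KCNK5 in the GRCg7b annotation, KCNK17 next to it and KCNK16 beyond 1 gene, 0 were called higher. Neighbours with other names were not examined. KCNK17, a leak channel of the same alkaline-activated group, fell from 5.92 ± 0.10 to 5.59 ± 0.09 (n = 3 each; adjusted p = 0.0256, limma with Benjamini-Hochberg adjustment), and KCNK16 lay under the mark (difference -0.17). The call for KCNK17 was lost without control 1 (adjusted p = 0.0644, limma with Benjamini-Hochberg adjustment), control 2 (0.059), SCA2 2 (0.0528) or SCA2 3 (0.0979).

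KCNK7, whose mammalian product gives no current of its own, was called lower in all 3 of its probe sets, each with a change under 2-fold. Gga.4356.1.S1_at read 12.74 ± 0.01 and 12.52 ± 0.02, GgaAffx.6963.1.S1_at 7.82 ± 0.13 and 7.29 ± 0.26, and GgaAffx.11853.1.S1_s_at 6.25 ± 0.18 and 5.86 ± 0.17 (n = 3 each). The first lost its call with any 1 array left out (limma, Benjamini-Hochberg adjusted p between 0.0682 and 0.127). The second lost it without control 1, control 3, SCA2 2 or SCA2 3, with Benjamini-Hochberg adjusted p between 0.0566 and 0.0741 in limma. The last kept it only without control 2, and as an _s_at probe set it can match more than 1 transcript. The levels of the 3 lay far apart, and whether each matches KCNK7 alone was not tested. KCNK4, a leak channel opened by membrane stretch, stood near the mark and was called higher (4.97 ± 0.22 and 5.40 ± 0.12). That call held only without control 2, with Benjamini-Hochberg adjusted p between 0.0576 and 0.117 otherwise in limma. In all, 2 two-pore probe sets rose and 7 fell (47.4% called, against 35.3% of all probe sets). With 1 array left out, the family had 0 falls without control 1 or SCA2 3, 1 without SCA2 2, 2 without control 2 or SCA2 1 and 3 without control 3. These included KCNK12 without SCA2 2 and KCNK10 without control 3, both under the mark and not called on all 6 arrays.

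**Figure D2:**
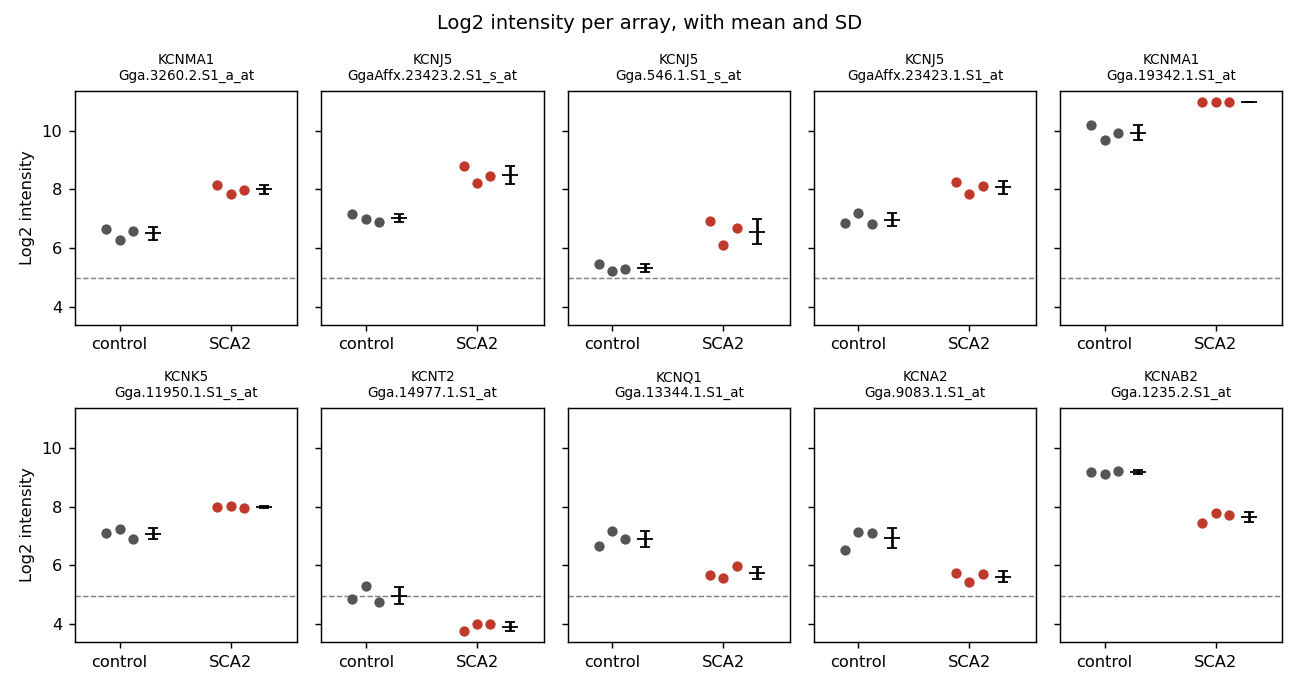
Log2 intensity on each array (y axis) for the 9 potassium channel probe sets called with a fitted change of at least 2-fold and for KCNK5, with control arrays in grey and SCA2 arrays in red. Black marks give the mean and SD (n = 3), the dashed line is the background mark, and in no panel do the groups overlap.

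Among voltage-gated channels, 12 of 68 probe sets fell and 1, of KCNV2 and under the mark, rose. Their share of calls, 19.1%, was below the 35.3% of all probe sets, of which 17.1% fell. However, 48 of the 68 lay under the mark in both groups and held 5 of the calls, while 64.5% of all tested probe sets lay above it. The other 20 held 8 falls and 0 rises. Of these 20, 15 were above the mark in both groups, with falls of KCNA10, KCNA2, KCNQ1 and the KCNAB2 probe sets Gga.1235.1.S1_at and Gga.1235.2.S1_at. Among all probe sets above it in both groups, 26.7% were called higher and 21.7% lower. The other 5 were above the mark on the control arrays alone, where a change can only be a fall. They held the falls of KCNH1, KCNC2 and Gga.15761.1.S1_at of KCNAB2. The share called among all probe sets above it on the control arrays alone was not counted. Falls of the whole family numbered 12 without control 1, 11 without control 2, 8 without control 3, SCA2 1 or SCA2 2 and 7 without SCA2 3. The 12 without control 1 were not the same 12. KCNA10, KCNC2 and the KCNAB2 probe sets Gga.1235.1.S1_at and Gga.15761.1.S1_at lost their calls there. KCNE3 gained one, as did probe sets of KCNC1, KCNE4 and KCNF1 under the mark. Other fits gained calls too, such as KCNAB1 without SCA2 1. KCNA2 encodes Kv1.2, a delayed rectifier best known from axons. It read 6.53, 7.14 and 7.11 on the control arrays, against 5.73, 5.41 and 5.70 on the SCA2 arrays. The groups were separate, with control 1 the lowest of its group. The change was -1.31 (SE 0.18, 2.49-fold lower; adjusted p = 0.00119, limma with Benjamini-Hochberg adjustment).

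KCNAB2 encodes a cytoplasmic beta subunit that binds channels of the KCNA family and has the fold of an aldo-keto reductase. Gga.1235.2.S1_at read 9.19, 9.11 and 9.23 on the control arrays, against 7.45, 7.77 and 7.72 on the SCA2 arrays. The gap between the groups was more than 1 log2 unit. The change was -1.53 (SE 0.10, 2.89-fold lower; adjusted p = 6.3e-05, limma with Benjamini-Hochberg adjustment), the smallest p among the members.

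The other probe sets of KCNAB2 differed from it in size or direction. Gga.1235.1.S1_at went from 8.09 ± 0.15 to 7.79 ± 0.03 and Gga.15761.1.S1_at from 5.50 ± 0.25 to 4.88 ± 0.29 (n = 3 each), and both were called lower. The first kept its call only without control 2. The second lost it without control 1 (adjusted p = 0.0842, limma with Benjamini-Hochberg adjustment), control 3 (0.0919) or SCA2 3 (0.0821). GgaAffx.488.1.S1_at read 5.58 ± 0.32 and 5.85 ± 0.10 and did not pass. KCNAB1, a related beta subunit, lay under the mark (difference -0.40).

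Of the other KCNA genes, only KCNA10 lay above the mark. It fell from 5.82 ± 0.12 to 5.29 ± 0.26 (n = 3 each; adjusted p = 0.0243, limma with Benjamini-Hochberg adjustment), and lost its call without control 1 (adjusted p = 0.0647 in the same test), control 2 (0.0675), SCA2 1 (0.0855) or SCA2 3 (0.0862). KCNA3 encodes Kv1.3, the main voltage-gated channel of lymphocytes in mammals. It read 4.33, 4.34 and 4.41 on the control arrays, against 4.24, 4.49 and 4.32 on the SCA2 arrays, under the mark on all 6 arrays. The groups overlapped (difference -0.01, SE 0.09; adjusted p = 0.926, limma with Benjamini-Hochberg adjustment). KCNA10, KCNA2 and KCNA3 lie next to each other in the GRCg7b annotation, and their log2 differences were -0.52, -1.31 and -0.01. KCNA1, KCNA4 and KCNA5 were under the mark too.

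KCNQ1, which encodes the slow delayed rectifier Kv7.1 of heart and epithelia, fell. Gga.13344.1.S1_at read 6.64, 7.18 and 6.90 on the control arrays, against 5.66, 5.57 and 5.97 on the SCA2 arrays. Every control value exceeded every SCA2 value. The change was -1.17 (SE 0.16, 2.25-fold lower; adjusted p = 0.0013, limma with Benjamini-Hochberg adjustment). A second probe set above the mark read 5.69 ± 0.37 and 5.35 ± 0.11 and did not pass, and the last lay under the mark (difference -0.11). KCNE1, the partner of KCNQ1 in the heart, read 5.72 ± 0.25 and 5.60 ± 0.04 in a probe set whose name carries A1, taken as reverse orientation, and stood at the mark in its S1 probe set (5.01 ± 0.12 and 4.86 ± 0.11). Neither passed. KCNE3, which joins KCNQ1 in intestinal epithelium, is described with the variable members.

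KCNH1 encodes EAG1, a channel that in mammals is found mainly in the brain. It read 5.81 ± 0.13 on the control arrays, against 4.93 ± 0.17 on the SCA2 arrays (n = 3 each), where its mean lay just under the mark. This was a change of -0.88 (SE 0.11; adjusted p = 9.3e-04, limma with Benjamini-Hochberg adjustment). KCNRG, a regulator that hinders the assembly of voltage-gated channels, read 7.15 ± 0.11 and 6.89 ± 0.10 in its probe set above the mark, which did not pass (adjusted p = 0.0659 in the same test). KCNS1, a silent subunit that modifies other channels, read 7.13 ± 0.03 and 7.15 ± 0.01.

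The remaining voltage-gated members above the mark showed small differences. KCNC2, a fast delayed rectifier, was called lower in 1 of 3 probe sets (5.08 ± 0.11 and 4.80 ± 0.02), a call that held only without control 3, and read 6.55 ± 0.08 and 6.50 ± 0.11 in another. KCND2, an A-type channel, KCNG2, a silent subunit, and KCNS2, another, differed by -0.05, -0.21 and -0.38 and did not pass. KCNS2 passed without control 2 (adjusted p = 0.00273, limma with Benjamini-Hochberg adjustment). The B cell, T cell, macrophage and epithelium markers given above fell on the same arrays as KCNA2, KCNAB2, KCNQ1 and KCNH1, and their part in these falls was not tested.

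Of 7 probe sets of sodium-activated channels, which open as sodium rises in the cell, 3 fell and 0 rose (42.9% called, against 35.3% of all probe sets). With 1 array left out, 2 or 3 fell. KCNT2 in GgaAffx.1639.1.S1_at went from 6.70 ± 0.11 to 5.75 ± 0.17 (n = 3 each), a change of -0.95 (SE 0.11, 1.93-fold lower; adjusted p = 5.9e-04, limma with Benjamini-Hochberg adjustment). Gga.14977.1.S1_at of KCNT2 read 4.86, 5.28 and 4.76 on the control arrays, against 3.75, 3.99 and 3.99 on the SCA2 arrays. It passed the test (change -1.06, SE 0.15; adjusted p = 0.0015, limma with Benjamini-Hochberg adjustment), but control 2 alone was over the mark, so the size of this fall is set by background. The remaining probe set lay under the mark. KCNT1, the paralogue, was called in 1 of 4 probe sets, from 6.30 ± 0.13 to 5.95 ± 0.13, and this call held only without control 2. A further KCNT1 probe set above the mark read 6.37 ± 0.36 and 6.31 ± 0.08 with overlapping groups.

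**Figure D3:**
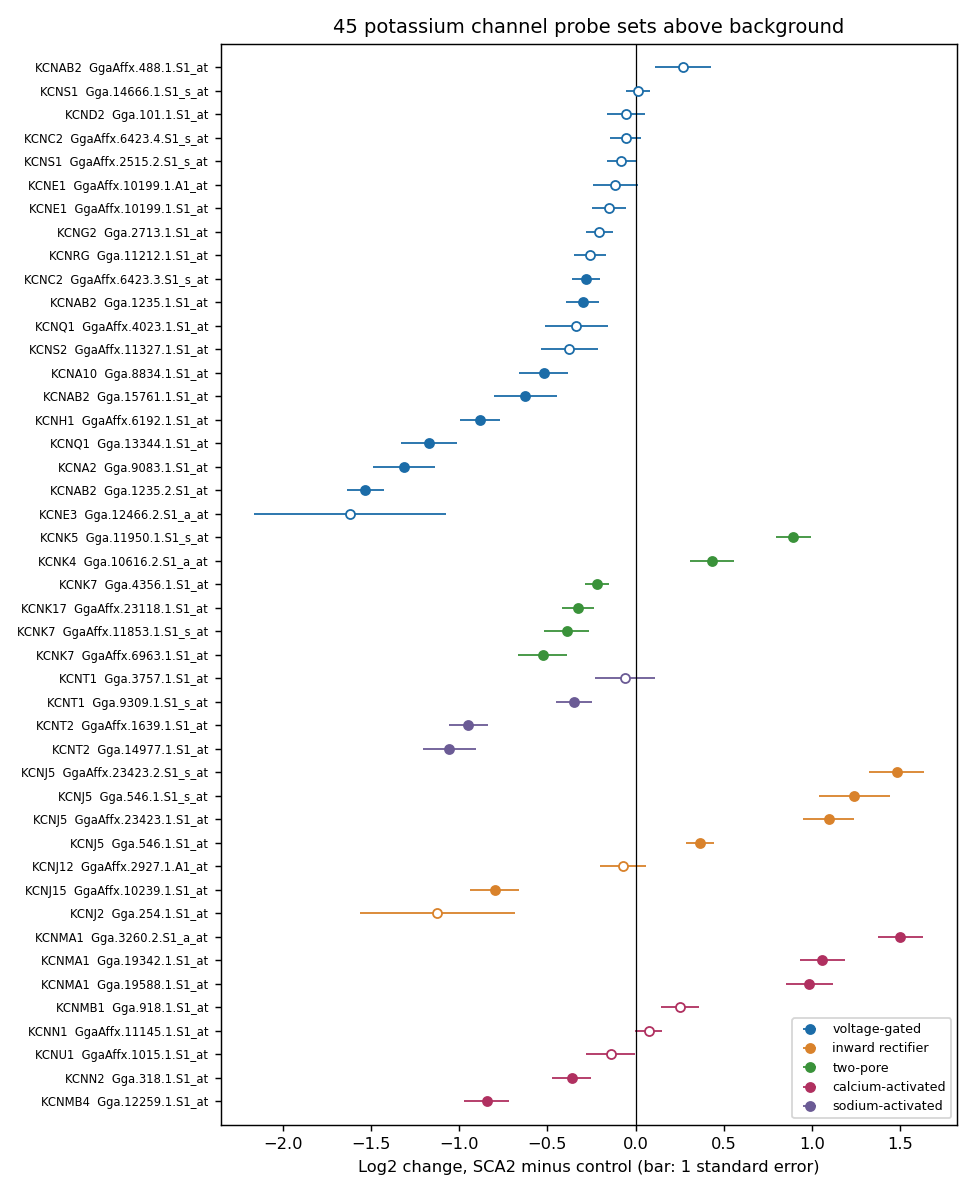
Log2 change (SCA2 minus control, x axis) with 1 standard error for each of the 45 potassium channel probe sets above background, sorted by family and change, with filled points for those that passed the test. The rises are those of KCNMA1, KCNJ5, KCNK5 and KCNK4, and the voltage-gated and sodium-activated probe sets that passed lie to the left of 0. Of the 45, 7 were above background on the control arrays alone, 4 of them called lower, and 1 on the SCA2 arrays alone. For these the way they were selected fixes the direction of the change.

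A few members varied widely within a group. The standard deviation exceeded 0.5 in a group for 4 of the 125 probe sets, of KCNE3, KCNJ2, KCNE4 and KCNJ8, against a median of 0.13 among the control arrays. KCNE3, the auxiliary subunit that keeps KCNQ1 open in the gut, read 6.75, 8.76 and 7.65 on control 1, 2 and 3 and 5.55, 5.79 and 6.96 on SCA2 1, 2 and 3. Control 2 and SCA2 3 were the highest of their groups, and the groups overlapped. The change of -1.62 (SE 0.54) did not pass (adjusted p = 0.055, limma with Benjamini-Hochberg adjustment), and it passed without control 1 (-2.10; adjusted p = 0.0187) or SCA2 3 (-2.05; adjusted p = 0.034).

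KCNJ2 encodes Kir2.1, the strong inward rectifier that sets the resting potential of muscle and of macrophages. It read 5.09, 7.06 and 5.80 on the control arrays, against 4.77, 4.76 and 5.04 on the SCA2 arrays. Control 2 again stood far over its group, and the SCA2 values lay close to the mark and under every control value. The change of -1.12 (SE 0.44) did not pass (adjusted p = 0.0871, limma with Benjamini-Hochberg adjustment), but did without control 1 (-1.57; adjusted p = 0.0151). Without control 2 the change was -0.59.

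KCNE4, an inhibitory partner of KCNQ1, and KCNJ8, the pore of a channel gated by ATP, varied widely in 1 probe set each, under the mark. KCNE4 in Gga.10977.1.S1_at read 3.04, 5.15 and 3.90 on the control arrays, against 3.38, 2.88 and 3.55 on the SCA2 arrays. KCNJ8 in Gga.17632.1.S1_at read 4.11, 5.55 and 4.52 on the control arrays, against 3.89, 3.95 and 4.34 on the SCA2 arrays. In all 4 probe sets control 2 and SCA2 3 were the highest arrays of their groups. The summed epithelium markers were 12944, 26523 and 17498 on control 1, 2 and 3 and 4340, 4093 and 9483 on SCA2 1, 2 and 3. The macrophage and phagocyte markers summed to 22460, 36925 and 28359 and to 9939, 10276 and 13490. Both sums were thus highest on the same 2 arrays. Other marker sums had other orders. The B cell and the T and NK cell sums were highest on control 3 and SCA2 3, and the fibroblast sum on control 3 and SCA2 2. Smooth muscle markers were highest on control 1 and SCA2 2, and neuron and glia markers on control 3 and SCA2 1. The part of any of these markers in these 4 members was not tested. Over all 125 members control 2 was the highest control array in 41 and SCA2 3 the highest SCA2 array in 37. Members with both were not counted.

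**Figure D4:**
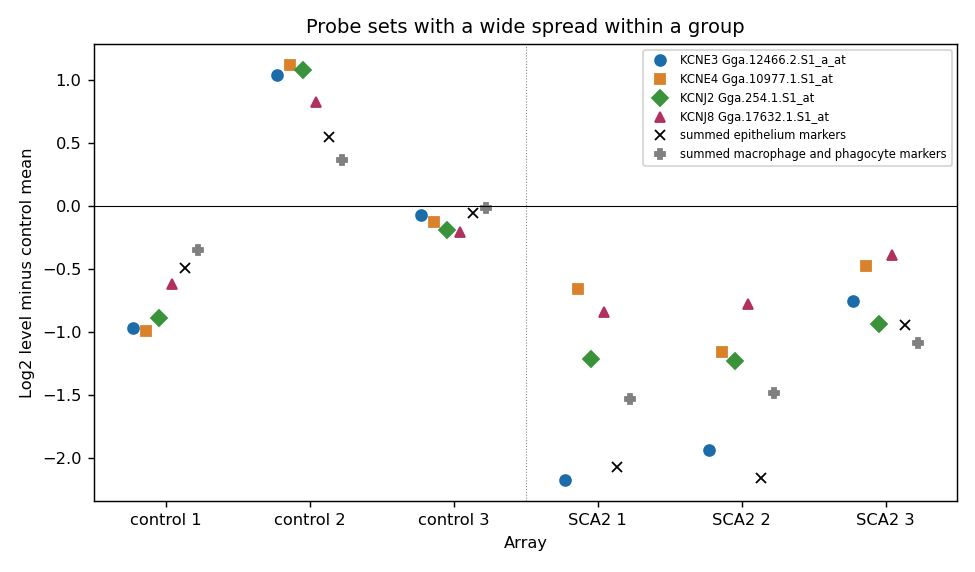
Log2 level minus the control mean (y axis) on each array (x axis) for the 4 potassium channel probe sets with a standard deviation over 0.5 in a group, and for the summed intensities of epithelium and of macrophage and phagocyte markers. All 6 series are highest on control 2 within the control group and on SCA2 3 within the SCA2 group. The sums of the other marker lists, not shown, are highest on other pairs of arrays.

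Of the 70 genes, 41 had no probe set above background, 26 of them voltage-gated or their partners, 8 two-pore, 6 inward rectifiers and 1 calcium-activated. Pore-forming or silent voltage-gated subunits among them were KCNA1, KCNA3, KCNA4 and KCNA5, KCNC1 and KCND3, KCNF1, KCNG1, KCNG3 and KCNG4, KCNH4 to KCNH8, KCNQ3 and KCNQ5 of the neuronal M-current family, KCNS3, KCNV1 and KCNV2. Auxiliary ones were KCNAB1, KCNE2, KCNE4 and the calcium-binding partners of A-type channels KCNIP1, KCNIP2 and KCNIP4. The inward rectifiers were KCNJ1, KCNJ3, KCNJ4, KCNJ6, KCNJ8 and KCNJ16, and the two-pore channels KCNK2, KCNK3, KCNK10, KCNK12, KCNK13, KCNK15, KCNK16 and KCNK18. KCNMB2 was the calcium-activated one. Single values of the 80 probe sets under the mark ran from 2.33 to 5.55. Of these 80, 9 were called lower and 1 higher, against 35.3% of all 38439 probe sets called, 18.2% higher and 17.1% lower. The share called among all probe sets under the mark was not counted. At such signals a size of change is set by background, so no fold is given. KCNQ5 (3.54 ± 0.04 and 2.96 ± 0.10) and KCNJ16 (4.29 ± 0.16 and 3.83 ± 0.05) were called lower in 1 of 2 probe sets each, with any 1 array left out too, but both groups read as background. The remaining 8 were of KCNF1, KCNIP4, KCNJ8, KCNK2, KCNK3 with 2, KCNRG and KCNV2, and each lost its call without at least 1 array.

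Probe sets of 1 gene did not always share a call. Among the 17 genes with several probe sets and at least 1 call, all changes had the same sign in 15, and the exceptions were KCNAB2 and KCNJ16. All probe sets were called in KCNJ5, KCNK3 and KCNK7. Different probe sets of a gene can lie in different parts or isoforms of its transcript, and where they lie was not determined here.

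Genes that work with potassium channels were counted from lists, at 1 probe set per gene. Of 26 measured genes of membrane potential and potassium homeostasis, 7 rose and 4 fell, with a median change of -0.12 against -0.01 over all named genes. TMEM175, a potassium channel of endosomes and lysosomes outside the KCN names, rose by 0.88 (10.04 ± 0.02 to 10.92 ± 0.03, n = 3 each). FXYD6, a regulator of the sodium-potassium pump, changed by 1.20 and ATP1B1, the beta subunit of that pump, by -1.39. NKAIN3, which interacts with the pump, was among the 7 called higher, but read 3.04 ± 0.17 and 4.43 ± 0.15, under the mark in both groups, so no size is given.

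Of 30 partners and regulators of potassium channels, 9 rose and 4 fell (median 0.01). ANK2, an ankyrin that anchors channels at the membrane, rose most clearly, from 9.17 ± 0.19 to 11.20 ± 0.10 (n = 3 each; change 2.04, SE 0.11; adjusted p = 3.8e-05, limma with Benjamini-Hochberg adjustment). LRRC52, a leucine-rich repeat protein that in mammals acts as a gamma subunit of BK-type channels, rose by 1.21. AKAP5, which holds protein kinase A near channels, rose by 1.18 and PRKACB, a catalytic subunit of that kinase, by 0.84. The 4 that fell were ANK3, another ankyrin gene (change -0.88), PIK3C2B (-0.49), AKAP9 (-0.37) and DPP10, which lay under the mark in both groups. The shares called in these lists, 42.3% and 43.3%, lay close to the 47% of all named genes.

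Genes of calcium entry and calcium response, the process that potassium channels sustain in lymphocytes, had 10 of 32 called higher and 15 lower. Their median change was -0.19, and 78.1% were called, against 47% of all named genes. These sets differ in signal. Of the 32, 29 lay above the mark in at least 1 group, and of all probe sets above it in both groups 48.4% were called. The 4 genes with the smallest p, named next, all fell. Among the 10 that rose, ATP2B4 had the smallest p, with a change of 1.09. P2RX5, an ATP-gated cation channel, fell from 9.15 ± 0.06 to 7.39 ± 0.07 (n = 3 each; change -1.77, SE 0.08; adjusted p = 2.5e-05, limma with Benjamini-Hochberg adjustment). ATP2A3, a calcium pump of the endoplasmic reticulum, changed by -1.57, PLCG2, a phospholipase of receptor signalling, by -1.53 and HVCN1, a voltage-gated proton channel, by -1.39. PLCG2 is also in the B cell marker list, whose sum fell on the same arrays. Chosen after their values were seen, the calcium sensor genes STIM1 and STIM2 changed by 0.49 and -0.49 (both called) and ORAI1, the pore of store-operated entry, by -0.27 (adjusted p = 0.0499, limma with Benjamini-Hochberg adjustment).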

How the data were processed

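RNA was measured on 6 Affymetrix chicken arrays, 3 control and 3 SCA2, grouped by sample title. The deposited file holds linear intensities that the authors made with RMA, per the submitters' processing notes. Its version is not given in the sources used. They ran from 4.28 to 20715, with array medians of 51.2 to 53.1, and log2 was taken. Because RMA makes array distributions alike, changes are relative to the other transcripts. After 96 array controls were left out, 38439 of 38535 probe sets were fitted with limma 3.58.1 in R 4.3.3 (lmFit with 1 term for the monolayer, eBayes at defaults), with Benjamini-Hochberg adjustment over all of them and a threshold of 0.05. Figures used Python 3.11.15 and matplotlib 3.10.9.

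Gene symbols came from the platform annotation, updated by gene identifier (27168 probe sets with 1 symbol, 177 with several, 11094 with none); all 70 KCN symbols matched RefSeq. Members above the background mark were named with values, those called with a log2 change of at least 1 per array, and KCNA3, KCNN4, KCNMA1 and KCNK5 wherever measured. Of each list up to 4 called genes with the smallest p were named. Further genes of the smooth muscle, partner and calcium lists were named after their values were seen. The members and lists were chosen with earlier results of these data known. Alternatives were other normalizations, filters, variance models, array weights, the replicate block, thresholds, marks and leaving out each array. The fit was tested on simulated data. The number of arrays limits precision, and 3 against 3 cannot give an exact permutation p below 0.1. Labels give no batch, and batch and group cannot be told apart. Protein sequences were planned and not used here.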

Additional observations from a re-analysis of the deposited data

How the results depend on the processing

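Under the alternatives to the fit, the number of potassium channel probe sets called higher stayed within 1.5 times of 10, between 7 at an adjusted p of 0.01 and 11, and between 8 and 9 with 1 array left out. The number called lower, 27, was 20 after a second quantile normalization or with arrays centred on their medians, and 33 with array weights. It fell to 15 with cyclic loess normalization (chosen after seeing the data), to 10 at a threshold of 0.01, to 14 when probe sets below the median intensity were left out, where only 28 members were tested, and to between 12 and 20 with 1 array left out. All these numbers can include calls not made in the main fit. The rises were 27.0% of the calls in the main fit, and 42.3% with cyclic loess. With the replicate number as a block, 11 were higher and 27 lower. The titles do not say that same-numbered arrays are pairs, so the numbers were not taken as pairs. The deviations of same-numbered arrays from their group means correlated with r of 0.41, 0.12 and 0.04. For differently numbered arrays r ran from -0.45 to 0.33. With 3 arrays per group these values cannot decide whether the arrays were paired. Above background lay 45 probe sets, against 64 and 34 at the 90th and 99th percentile, 70 with the lower quartile of all probe sets as the mark, 41 where all 3 arrays of a group had to pass, and 47 without reporter probe sets in the mark (chosen after seeing the data). Of the 27 calls among 48 named probe sets, 16 held in every fit that tested them, 11 were lost in at least 1 and 0 changed sign. The causes were not tested.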
